A study of Homo sapiens with 12 samples.

Results

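The genes of glycolysis and the hypoxia-inducible genes were described in RNA-Seq data of 201B7, a long-established line of human induced pluripotent stem cells (iPSCs). Cells of 4 culture conditions had been collected on Day 5. The set held 35 genes that were chosen by name, among 60617 genes in the TPM table. Of these, 34 also had a row among the 58575 genes of the count table, and PFKL, which had none, was described from its TPM values. The members fell into 6 roles. There were 4 transporters of glucose and lactate, 11 genes of upper glycolysis and 8 of lower glycolysis. The rest were 2 pyruvate dehydrogenase kinases, 4 oxygen-using enzymes grouped as oxygen-sensing and 6 other hypoxia-inducible genes.

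Each condition had 3 libraries, and all 12 came from the same line. Cond 1, the control, was kept by general iPSC maintenance in StemFit. In Cond 2, low nutrient, the StemFit medium had been heated at 56 °C for 30 min. In Cond 3, differentiation, the cells were given DMEM supplemented with FBS (10%), GlutaMax (1%) and MEM NEAA (1%). In Cond 4, physical stimulus, the cells were pipetted 20 times when passaged and then cultured as usual. By the paper's account, the heated medium was given from an earlier day than the FBS medium. No condition lowered the oxygen according to the labels, and glucose, lactate and oxygen were not measured in these files. By the series' description, a plate held 1 well of each condition and 3 plates were made. The study's methods describe several plates for different assays and an arrangement carried out in triplicate, the paper elsewhere calls the replicates technical, and the sources used here do not say whether the libraries came from separate runs, so that p-values measure only the spread between these libraries, which may be technical.

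Glycolysis splits glucose into pyruvate, and lactate dehydrogenase turns pyruvate into lactate, which leaves the cell through monocarboxylate transporters. Primed pluripotent stem cells are known for a high rate of glycolysis even when oxygen is present. When oxygen is low, prolyl hydroxylases stop marking the HIF alpha subunits for destruction, and HIF dimers bind the hypoxia response element near many glycolytic genes, near VEGFA and near genes of the hydroxylases themselves.

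The total was between 16441148 and 21871503 counts per library. The quasi-likelihood test of edgeR was run on the counts of 17747 genes, the 34 members with counts among them, and a gene was called where its p-value, adjusted over these genes by the Benjamini-Hochberg method, was under 0.05. Levels are given in TPM, a share of all transcripts corrected for gene length. The 11 markers of pluripotent cells summed to between 8740 and 9013 TPM in Cond 1, 7509 and 8622 in Cond 2, 8887 and 9620 in Cond 3 and 8584 and 9070 in Cond 4. Of these, 4 rose and 5 fell in Cond 2, and 5 rose and 4 fell in Cond 3. NANOG, which adds little to the sum, was among those that fell in both media. Its mean was 45.9 TPM in Cond 1, 22.9 in Cond 2, 10.5 in Cond 3 and 46.6 in Cond 4. NANOG fell by a log2 fold change of -1.09 in Cond 2 (edgeR adjusted p = 6.43e-10) and -2.16 in Cond 3 (edgeR adjusted p = 1.40e-14). SOX2 was among those that rose in both, by 0.44 and 0.45 on the log2 scale. The summed level of 7 neuroectoderm markers was between 21.4 and 33.2 TPM in Cond 1, 460 and 750 in Cond 2, 58.8 and 78.0 in Cond 3 and 28.5 and 48.1 in Cond 4. Of these markers, 5 were called higher in Cond 2 and 2 in Cond 3, while PAX6 and SOX1 did not pass 0.372 and 0.919 TPM in any library. The 8 mesendoderm markers summed to at most 4.81 TPM in any library, with FOXA2 at 0, and 1 of the 2 tested was called higher in Cond 3. The 7 surface ectoderm markers, mostly KRT8 and KRT18, summed to between 531 and 629 TPM in Cond 1, 448 and 507 in Cond 2, 409 and 429 in Cond 3 and 505 and 579 in Cond 4. Of the 5 tested, 3 rose and 2 fell in Cond 2, where DLX5 reached 26.3 TPM, and 1 rose and 1 fell in Cond 3, while TP63 stayed at most at 0.0504. The 6 fibroblast markers summed to between 290 and 315 TPM in Cond 1, 202 and 252 in Cond 2, 536 and 573 in Cond 3 and 240 and 279 in Cond 4, mostly from COL1A1 and COL1A2, with DCN and LUM at most at 0.0337 and 0.159 TPM. Of the 4 tested, 2 fell in Cond 2, 2 rose in Cond 3 and 0 were called in Cond 4 by edgeR, although the sums of Cond 4 lay below those of Cond 1. The part of these differences in the results below was not tested, and in bulk libraries fewer cells of a type and less RNA per cell cannot be told apart.

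The promoters of 5 members are shown, since they carry the patterns on which the comparisons turn: PKM, LDHA and BNIP3 were lower in Cond 2 and higher in Cond 3, ALDOC was lower in both and EGLN3 was higher in both. Each window runs from 250 bases before to 50 bases after the RefSeq start of the gene on GRCh38.p14, 5′ to 3′ along the gene. Capitals mark the core of the hypoxia response element, ACGTG or GCGTG, on either strand, so that a palindrome CACGTG holds a match on both strands.
PKM: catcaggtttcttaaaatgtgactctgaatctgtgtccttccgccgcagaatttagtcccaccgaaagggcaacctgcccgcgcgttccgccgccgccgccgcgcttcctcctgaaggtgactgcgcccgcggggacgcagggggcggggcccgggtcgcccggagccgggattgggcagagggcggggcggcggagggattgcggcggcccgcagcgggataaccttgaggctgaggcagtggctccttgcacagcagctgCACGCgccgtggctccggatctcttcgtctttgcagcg
LDHA: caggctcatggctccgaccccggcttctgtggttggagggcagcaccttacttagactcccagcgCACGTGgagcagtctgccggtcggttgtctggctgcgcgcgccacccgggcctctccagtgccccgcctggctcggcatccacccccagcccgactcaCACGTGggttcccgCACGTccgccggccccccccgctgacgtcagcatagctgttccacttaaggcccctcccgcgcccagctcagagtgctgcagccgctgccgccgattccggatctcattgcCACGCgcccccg
BNIP3: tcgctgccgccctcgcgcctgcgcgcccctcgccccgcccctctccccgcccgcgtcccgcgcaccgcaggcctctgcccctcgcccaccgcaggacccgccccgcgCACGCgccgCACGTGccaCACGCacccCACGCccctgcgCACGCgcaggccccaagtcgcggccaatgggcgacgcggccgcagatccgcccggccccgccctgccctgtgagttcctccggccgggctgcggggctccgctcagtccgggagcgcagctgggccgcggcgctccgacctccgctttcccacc
ALDOC: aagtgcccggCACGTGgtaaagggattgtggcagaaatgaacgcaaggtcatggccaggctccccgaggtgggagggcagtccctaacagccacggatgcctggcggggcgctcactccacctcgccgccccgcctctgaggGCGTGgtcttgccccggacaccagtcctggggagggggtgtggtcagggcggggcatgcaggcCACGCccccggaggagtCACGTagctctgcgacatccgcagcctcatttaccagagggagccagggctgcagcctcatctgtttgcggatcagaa
EGLN3: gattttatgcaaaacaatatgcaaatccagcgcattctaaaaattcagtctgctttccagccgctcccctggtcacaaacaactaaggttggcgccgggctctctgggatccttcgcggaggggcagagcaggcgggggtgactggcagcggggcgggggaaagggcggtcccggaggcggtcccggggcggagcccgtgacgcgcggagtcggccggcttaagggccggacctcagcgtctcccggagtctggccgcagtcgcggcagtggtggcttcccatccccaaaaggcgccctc

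The windows lie at chr15:72231141-72231440 (reverse strand) for PKM, chr11:18394313-18394612 (forward strand) for LDHA, chr10:131981874-131982173 (reverse strand) for BNIP3, chr17:28576846-28577145 (reverse strand) for ALDOC and chr14:33951025-33951324 (reverse strand) for EGLN3. LDHA had another window, with 1 match, that is not shown. The LDHA window shown held 6 matches in 4 stretches, with palindromes whose forward match began at positions -184 and -86 from the start. The BNIP3 window held 6 matches in 5 stretches, all between positions -143 and -104. The ALDOC window held 5 matches, the PKM window 1, which lay at position 12 after the start, and the EGLN3 window 0. Of 35 members, 31 had a window that was read here, with 58 windows in all. Of these windows, 40 (69.0%) held a match, against 48.4% of all 35116 windows of the same length. Windows on chromosome 8, where NDRG1 lies, were left out for the members but not for all windows. A gene could have several windows, up to 7 for HK1 and for PFKM. The windows were not matched for GC content, which was 65% to 80.7% in those shown. At least 1 window of 29 members held a match, and PGAM1 and EGLN3 had none in these letters. HK2 and PGK1, with up to 6 and 4 matches, were the others with at least 4. A match is a description of the letters and not a measured site of binding.

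In Cond 2, the heated medium, 10 of 34 members fell and 2 rose against Cond 1. The genes that fell included HK1 at the entry of glycolysis and PKM and LDHA at its exit, while HK2 and LDHB were not called. Over all genes tested, 10.8% rose and 10.1% fell. The share of members that fell (29.4%) was thus above that of all genes, and the share that rose (5.88%) below it. Here and below, the genes tested were not matched to the members for read counts. Smaller changes can be called where a gene has more reads. The median log2 fold change was -0.111 over the members and 0.0002 over all genes. The 10 members were PKM, HK1, P4HA1, ALDOC, SLC2A3, SLC2A1, BNIP3, LDHA, GPI and PFKP, and the 2 that rose were EGLN3 and VEGFA. Only PKM also passed a fold change of 2, as did 4.34% of all genes. The TPM of 12 members (35.3%) did not overlap between Cond 1 and Cond 2, a share like the 35.7% over all genes.

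In Cond 3, the FBS medium, 15 of 34 members rose and 8 fell against Cond 1. Over all genes 19.5% rose and 18.8% fell, against 44.1% and 23.5% of the members. The median log2 fold change was 0.044 over the members and -0.0064 over all genes. Lower glycolysis rose in 6 of 8 members with a median of 0.258, while 2 of 4 transporters fell. A fold change above 2 was passed by 4 members (11.8%), against 8.16% of all genes: SLC16A3 and PFKFB4 rose, and VEGFA and SLC2A3 fell. The TPM of 24 members (70.6%) did not overlap between Cond 1 and Cond 3, against 48.6% of all genes.

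In Cond 4, the pipetted cells, 0 members passed the test by edgeR in either direction, and 0 by DESeq2 and by limma. Over all genes 0.0225% rose and 0.00563% fell. At an unadjusted p under 0.05, 2 of 34 members passed. The TPM of 5 members (14.7%) did not overlap between Cond 1 and Cond 4, against 11.9% of all genes. These were PFKP, GAPDH, ALDOC, PGK1 and SLC16A1, all of them lower in Cond 4.

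**Figure D1:**
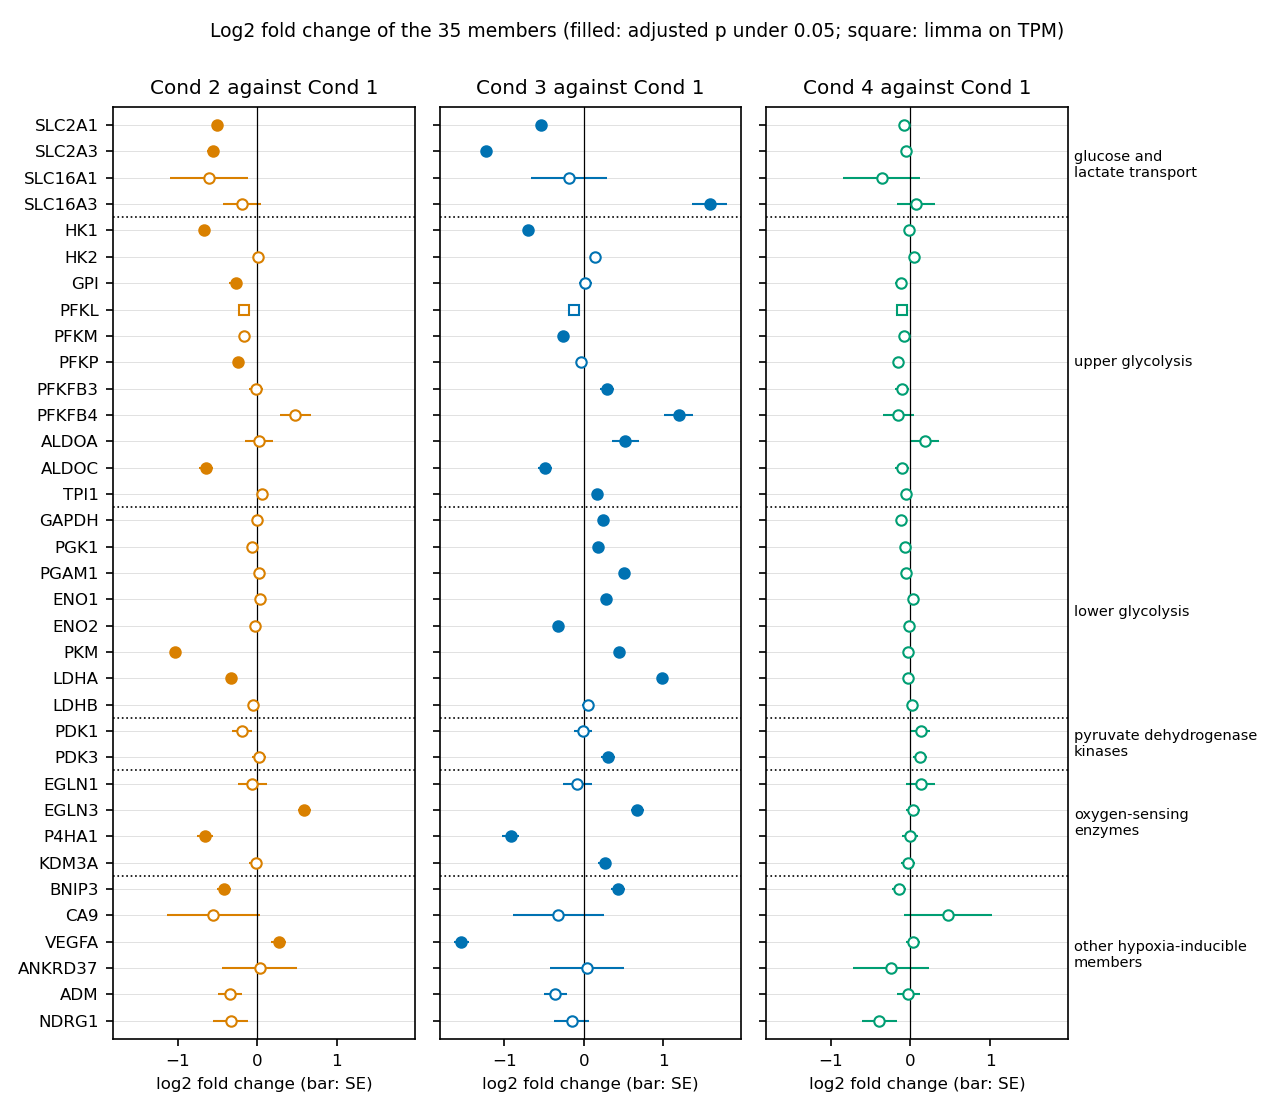
Log2 fold change of each of the 35 members (rows, grouped by role) against Cond 1 in Cond 2, Cond 3 and Cond 4, with the SE as a bar. Filled points passed the test, and PFKL (squares) comes from limma on log2(TPM + 1). PKM is farthest to the left in Cond 2 at -1.03, and the points of Cond 3 spread from -1.54 for VEGFA to 1.58 for SLC16A3, while all points of Cond 4 are open.

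Cond 2 and Cond 3 were also compared with each other, since both share the control libraries in their comparisons with Cond 1. The heated medium was given from an earlier day, so that medium and length of exposure cannot be told apart here. In Cond 3, 15 of 34 members were higher than in Cond 2 and 4 were lower, against 19.0% and 19.2% of all genes, and the shares of the members were 44.1% and 11.8%. The median log2 fold change was 0.192 over the members and -0.0012 over all genes. A fold change above 2 was passed by SLC16A3, PKM and LDHA, which were higher in Cond 3, and VEGFA, which was lower, against 8.77% of all genes. The TPM of 19 members (55.9%) did not overlap, against 47.6% of all genes. By their calls in the comparisons with Cond 1, EGLN3 rose in both conditions, VEGFA rose in Cond 2 and fell in Cond 3, 3 members fell in Cond 2 and rose in Cond 3, 5 fell in both, and 9 were called in neither.

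Glucose enters cells through the facilitative transporters SLC2A1 and SLC2A3, and both fell in Cond 2 and in Cond 3. SLC2A3 (chr12:7919230-8019007, reverse strand), the high-affinity transporter of neurons and early embryos, was at 479, 443 and 405 TPM in Cond 1, 296, 297 and 365 in Cond 2, 188, 194 and 194 in Cond 3 and 426, 424 and 439 in Cond 4. The libraries of Cond 2 and of Cond 3 all lay below those of Cond 1, those of Cond 3 the lowest, and Cond 4 lay within the range of Cond 1. The log2 fold change was -0.56 (SE 0.064, edgeR adjusted p = 6.57e-07) in Cond 2 and -1.23 (SE 0.065, edgeR adjusted p = 1.36e-12) in Cond 3, and SLC2A3 was lower in Cond 3 than in Cond 2 by a log2 fold change of -0.67 (edgeR adjusted p = 2.34e-08). SLC2A1 (chr1:42925353-42958893, reverse strand), the widely expressed transporter, was at 273, 263 and 243 TPM in Cond 1, 198, 181 and 205 in Cond 2, 181, 175 and 188 in Cond 3 and 251, 239 and 252 in Cond 4. It fell to a like level in both media, with log2 fold changes of -0.50 (SE 0.0577) and -0.54 (SE 0.0577), and Cond 3 was not called against Cond 2 (edgeR adjusted p = 0.589). The SLC2A14 row, a near-identical paralog of SLC2A3, held 1.02% of the reads of SLC2A3.

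Lactate leaves cells mainly through SLC16A3 in highly glycolytic cells, and SLC16A1 carries lactate and pyruvate in both directions. SLC16A3 was low, at 1.49, 1.79 and 2.01 TPM in Cond 1, 2.24, 1.42 and 1.25 in Cond 2, 5.84, 5.44 and 4.88 in Cond 3 and 1.34, 2.49 and 1.77 in Cond 4. All libraries of Cond 3 were above all others, and the other 3 conditions overlapped. With 233 to 322 reads in Cond 3 against 74 to 106 in Cond 1, the log2 fold change was 1.58 (SE 0.224, edgeR adjusted p = 6.40e-06), a 2.99-fold rise. SLC16A1 had between 5 and 21 reads per library, and at this depth no difference was detectable (edgeR adjusted p = 0.443 in Cond 2 and 0.806 in Cond 3). The summed level of the 4 transporters was 705 ± 51.8 TPM (SD, n = 3) in Cond 1, 516 ± 49.1 in Cond 2, 380 ± 7.31 in Cond 3 and 679 ± 14.1 in Cond 4, nearly all of it from SLC2A1 and SLC2A3.

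Hexokinase traps glucose in the cell, and its isozymes moved differently. HK1 (chr10:69269984-69401884, forward strand) was at 225, 204 and 202 TPM in Cond 1, 130, 141 and 151 in Cond 2, 132, 136 and 129 in Cond 3 and 211, 205 and 210 in Cond 4. The libraries of Cond 2 and Cond 3 overlapped with each other and lay below all others. HK1 fell by a log2 fold change of -0.67 in Cond 2 (SE 0.0532, edgeR adjusted p = 2.31e-09) and -0.70 in Cond 3 (SE 0.0532, edgeR adjusted p = 6.77e-10). HK2, the hypoxia-inducible isozyme, was at 71.0 ± 3.9 TPM (SD, n = 3) in Cond 1, 76.0 ± 5.87 in Cond 2, 79.7 ± 1.41 in Cond 3 and 73.4 ± 2.97 in Cond 4, and passed the test in no comparison, with edgeR adjusted p = 0.0835 in Cond 3. It passed there by limma (0.0494) and under upper-quartile normalization (0.0461), and against Cond 2 without low nutrient replicate 3 (log2 0.18).

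Glucose-6-phosphate isomerase and the phosphofructokinases, which commit sugar to glycolysis, moved little. GPI and the platelet-type PFKP fell in Cond 2, with log2 fold changes of -0.27 (SE 0.0789, edgeR adjusted p = 0.0166) and -0.24 (SE 0.0554, edgeR adjusted p = 0.00322). The GPI libraries overlapped, at 29.1, 32.0 and 28.4 TPM in Cond 1 and 26.3, 22.8 and 29.8 in Cond 2, and the call was lost by limma and without replicate 2 of the control or of low nutrient (-0.22 and -0.17). PFKM, the muscle-type subunit, fell in Cond 3 by a log2 fold change of -0.26 (SE 0.0677, edgeR adjusted p = 0.00356). PFKL, the liver-type subunit, was at 92.2 ± 2.68 TPM (SD, n = 3) in Cond 1, 82.7 ± 7.39 in Cond 2, 84.6 ± 2.0 in Cond 3 and 86.3 ± 5.53 in Cond 4 and was not called by limma on log2(TPM + 1) (adjusted p = 0.0933 in Cond 2 and 0.155 in Cond 3). The bifunctional enzymes PFKFB3 and PFKFB4, which set the level of the activator fructose-2,6-bisphosphate, both rose in Cond 3.

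PFKFB4 was at 4.87, 5.06 and 4.53 TPM in Cond 1, 9.46, 6.02 and 5.85 in Cond 2, 12.1, 11.9 and 9.72 in Cond 3 and 3.5, 3.89 and 5.72 in Cond 4. Replicate 1 of Cond 2 stood above its other libraries, near the lowest of Cond 3. The log2 fold change was 1.19 (SE 0.186, edgeR adjusted p = 2.20e-05) in Cond 3 and 0.48 (SE 0.191, edgeR adjusted p = 0.0794) in Cond 2, which was called without low nutrient replicate 3 (0.61) and with no filter on low counts. PFKFB3 rose in Cond 3 by 0.29 on the log2 scale (SE 0.0871, edgeR adjusted p = 0.0106), a call lost without control replicate 1 (0.25).

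The aldolases split fructose-1,6-bisphosphate, and here the brain-type ALDOC had more TPM than ALDOA. ALDOC (chr17:28573115-28576948, reverse strand) was at 45.0, 46.2 and 44 TPM in Cond 1, 29.8, 31.3 and 31.3 in Cond 2, 35.6, 30.5 and 32.0 in Cond 3 and 41.2, 43.1 and 42.0 in Cond 4. It fell in both media, by log2 fold changes of -0.64 (SE 0.0881) and -0.49 (SE 0.0872), with edgeR adjusted p = 9.44e-06 and 0.000104. ALDOA was at 5.6 ± 0.43 TPM (SD, n = 3) in Cond 1 and 8.15 ± 1.49 in Cond 3, with a log2 fold change of 0.52 (SE 0.172, edgeR adjusted p = 0.0207). Of the exon bases of ALDOA, 42.8% lie in a read-through gene on the same strand, which had 2 to 34 reads per library, so the level of ALDOA is uncertain. The call of ALDOA was lost without control replicate 1 (0.51), control replicate 3 (0.47) or differentiation replicate 1 (0.37). Triosephosphate isomerase, TPI1, rose in Cond 3 by 0.17 on the log2 scale (SE 0.0488, edgeR adjusted p = 0.00796), from 981 ± 51.8 to 1126 ± 22.5 TPM.

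Lower glycolysis makes the ATP and the pyruvate, and it held the highest levels of the set, with GAPDH at 2479 ± 192 TPM (SD, n = 3) in Cond 1. GAPDH, PGK1, PGAM1 and ENO1, the enzymes from glyceraldehyde-3-phosphate to phosphoenolpyruvate, rose together in Cond 3 and were not called in Cond 2. PGAM1, phosphoglycerate mutase, was at 389, 421 and 383 TPM in Cond 1, 400, 439 and 444 in Cond 2, 587, 561 and 584 in Cond 3 and 393, 386 and 387 in Cond 4. Its rise in Cond 3 was 1.42-fold (log2 0.51, SE 0.0499, edgeR adjusted p = 3.35e-08). The other 3 rose less, with log2 fold changes of 0.24 for GAPDH, 0.18 for PGK1 and 0.28 for ENO1. ENO2, the neuronal enolase, went the other way and fell by 0.32 on the log2 scale (SE 0.0612, edgeR adjusted p = 0.00023), from 235 ± 5.7 to 192 ± 15.2 TPM. GAPDH, which is often used as a reference gene, was at 2963, 3003 and 2990 TPM in Cond 3 and 2380, 2700 and 2356 in Cond 1, without overlap (edgeR adjusted p = 0.000361). Pseudogene rows named for GAPDH held 0.927% of its reads, and adding them changed no call of a member.

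PKM, pyruvate kinase, makes pyruvate, and its gene (chr15:72199029-72231819, reverse strand) gave the largest fall of a member in Cond 2. It was at 462, 499 and 435 TPM in Cond 1, 212, 245 and 269 in Cond 2, 647, 628 and 655 in Cond 3 and 444, 451 and 481 in Cond 4. No library of Cond 2 or Cond 3 overlapped with Cond 1, and they lay on opposite sides of it. PKM fell 2.04-fold in Cond 2 (log2 -1.03, SE 0.059, edgeR adjusted p = 8.78e-12) and rose 1.36-fold in Cond 3 (log2 0.44, SE 0.0582, edgeR adjusted p = 2.56e-06). Between the media, Cond 3 was 2.77-fold above Cond 2 (edgeR adjusted p = 1.36e-14). With 9195 to 11975 reads in Cond 2 and 20172 to 21865 in Cond 1, counting error was small. Counts per gene do not separate the M1 and M2 isoforms of PKM.

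LDHA, the subunit of lactate dehydrogenase that favours lactate (chr11:18394560-18408425, forward strand), moved in the same directions as PKM. It was at 109, 127 and 113 TPM in Cond 1, 87.5, 102 and 106 in Cond 2, 250, 217 and 234 in Cond 3 and 111, 114 and 120 in Cond 4. The libraries of Cond 3 were far above all others, while those of Cond 2 lay just below those of Cond 1. The log2 fold change was -0.33 in Cond 2 (SE 0.0677, edgeR adjusted p = 0.000994), a call lost by limma in all genes above 0 TPM (-0.24), and 0.98 in Cond 3 (SE 0.0671, edgeR adjusted p = 1.13e-10), a 1.97-fold rise. LDHB, the subunit that favours pyruvate, stayed between 91.3 ± 5.1 TPM (SD, n = 3) in Cond 1 and 96.2 ± 1.2 in Cond 3 and was called in no comparison. Its pseudogene LDHBP2 held 14.8% as many reads as LDHB, and 33.4% of the exon bases of LDHB overlap a gene on the same strand with 0 to 2 reads per library.

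**Figure D2:**
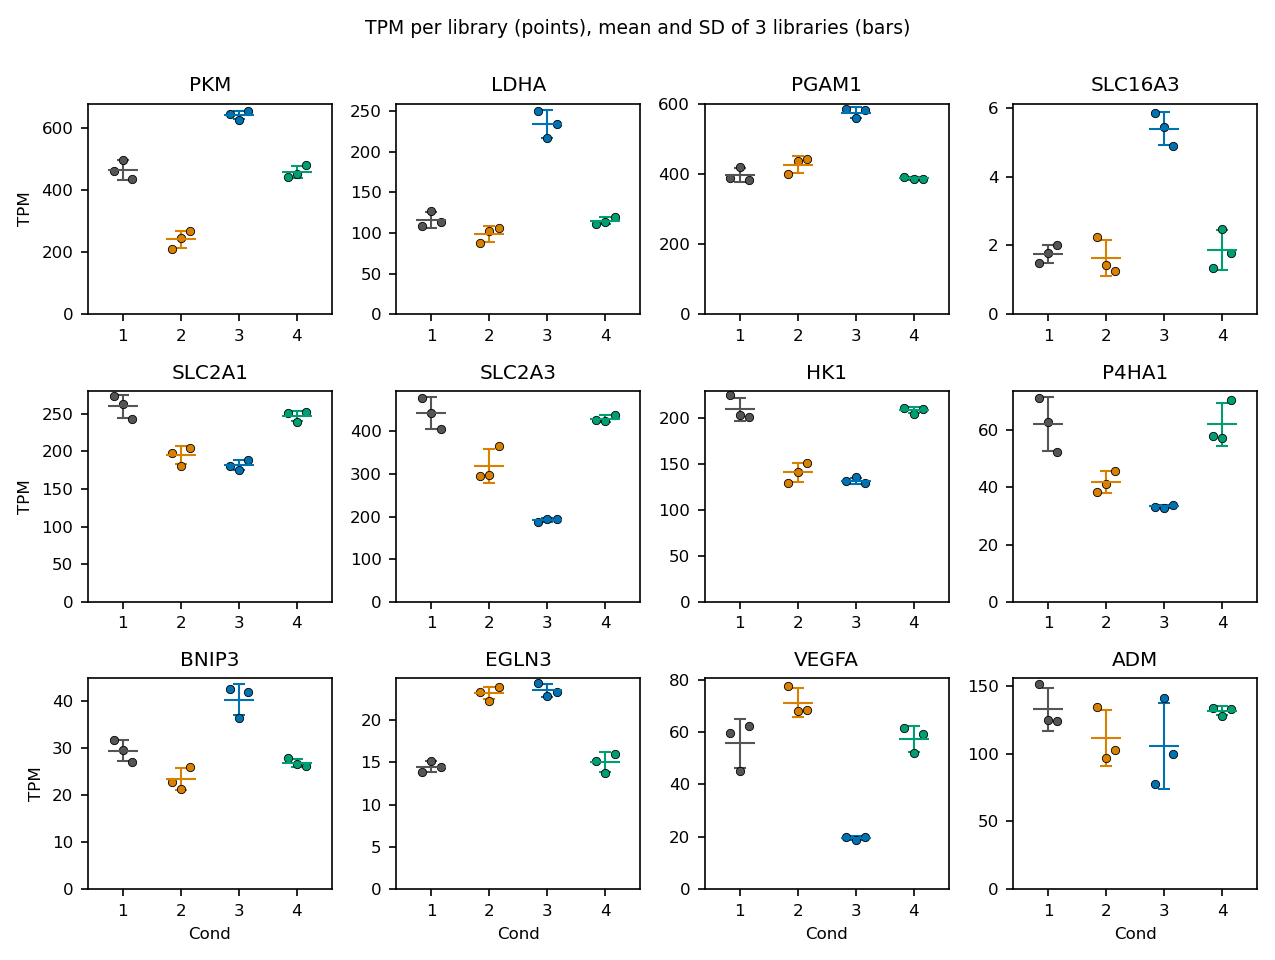
TPM of 12 members in each library (points), with the mean and SD of the 3 libraries of a condition (bars), for Cond 1 to Cond 4 from left to right, each axis from 0. PKM in Cond 2 lies between 212 and 269 TPM and in Cond 3 between 628 and 655, on either side of Cond 1, and VEGFA in Cond 3 lies between 18.7 and 20.0 TPM, below all other libraries.

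Summed over the 19 genes of upper and lower glycolysis, the level was 6724 ± 354 TPM (SD, n = 3) in Cond 1, 6761 ± 447 in Cond 2, 8010 ± 76.8 in Cond 3 and 6497 ± 78.4 in Cond 4. Sums of Cond 2 and Cond 1 overlapped, although PKM had fallen, and GAPDH, TPI1 and ENO1 carried most of the sum. Over genes at 1 TPM or more in all libraries, the median log2 fold change in Cond 2 was 0.085 by limma on log2(TPM + 1). By edgeR it was 0.0002 over all genes tested. The TPM scale of Cond 2 thus lay above that of Cond 1, and its levels, sums, overlaps and limma results carry this shift. The lowest library of Cond 3 was at 7932 TPM and the highest of Cond 1 at 7126 TPM. Upper glycolysis summed to 1643 ± 69.8 TPM in Cond 1 and 1701 ± 31.6 in Cond 3, and lower glycolysis to 5081 ± 285 and 6309 ± 58.9, so that nearly all of the difference stood in the lower part.

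The pyruvate dehydrogenase kinases shut the entry of pyruvate into the citric acid cycle, and HIF is known to induce PDK1 and PDK3. PDK1 was at 6.52 ± 1.28 TPM (SD, n = 3) in Cond 1, 6.07 ± 0.394 in Cond 2, 6.6 ± 0.363 in Cond 3 and 7.25 ± 1.02 in Cond 4 and was called in no comparison. PDK3 was at 22.7, 29.4 and 26.5 TPM in Cond 1, 22.8, 30.6 and 31.0 in Cond 2, 34.4, 31.7 and 32.4 in Cond 3 and 27.6, 29.3 and 29.3 in Cond 4. Cond 3 did not overlap with the others, and the spread within Cond 1 and Cond 2 was wide. PDK3 rose in Cond 3 by 0.30 on the log2 scale (SE 0.0887, edgeR adjusted p = 0.0103), a call lost without control replicate 1 (0.20).

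Among the members grouped as oxygen-sensing enzymes, EGLN3 rose in both media. P4HA1, a collagen hydroxylase rather than a HIF hydroxylase, fell in both. EGLN3, the prolyl hydroxylase PHD3 that marks HIF alpha and is itself a HIF target (chr14:33924227-34462774, reverse strand), was at 13.9, 15.2 and 14.4 TPM in Cond 1, 23.3, 22.3 and 23.9 in Cond 2, 24.4, 22.9 and 23.3 in Cond 3 and 15.2, 13.7 and 16 in Cond 4. Cond 2 and Cond 3 overlapped with each other and lay above all libraries of Cond 1 and Cond 4. The rises were 1.51-fold (log2 0.59, SE 0.0829, edgeR adjusted p = 1.12e-05) and 1.59-fold (log2 0.67, SE 0.0826, edgeR adjusted p = 9.00e-07). EGLN1, the main hydroxylase PHD2, was at 4.08 ± 0.315 TPM (SD, n = 3) in Cond 1 and 3.94 ± 0.454 in Cond 3 and was called in no comparison. Of its exon bases, 55.8% overlap a gene on the same strand with 0 reads in every library, so its level is uncertain.

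P4HA1, a catalytic subunit of the collagen prolyl hydroxylase, needs oxygen as well and is a known HIF target. It was at 71.4, 62.9 and 52.5 TPM in Cond 1, 38.5, 41.2 and 45.9 in Cond 2, 33.3, 32.9 and 34.0 in Cond 3 and 58.1, 57.3 and 70.7 in Cond 4. The libraries of Cond 2 and Cond 3 lay below all of Cond 1 and Cond 4. The log2 fold change was -0.66 in Cond 2 (SE 0.101, edgeR adjusted p = 3.41e-05) and -0.92 in Cond 3 (SE 0.102, edgeR adjusted p = 1.98e-07). Cond 3 was called lower than Cond 2 (edgeR adjusted p = 0.0471), with a log2 fold change of -0.26. That call was lost in 9 alternatives: with the replicate number as a block (0.0533), with upper-quartile or median-ratio normalization, by limma in all genes above 0 TPM, without low nutrient replicate 2 or 3 and without any 1 library of differentiation, and over these the log2 fold change lay between -0.31 and -0.20. KDM3A, a histone demethylase, rose in Cond 3 by 0.26 on the log2 scale (SE 0.0818, edgeR adjusted p = 0.0132), a call lost without control replicate 2 (0.24), differentiation replicate 1 (0.22) or differentiation replicate 3 (0.24).

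Among the other hypoxia-inducible members, VEGFA fell most. VEGFA, the growth factor of blood vessels (chr6:43770184-43786487, forward strand), was at 59.6, 45.1 and 62.4 TPM in Cond 1, 77.6, 67.9 and 68.4 in Cond 2, 20.0, 18.7 and 19.8 in Cond 3 and 61.5, 51.9 and 59.2 in Cond 4. All libraries of Cond 3 were far below the rest and those of Cond 2 just above Cond 1, where replicate 2 was the lowest. VEGFA fell 2.92-fold in Cond 3 (log2 -1.54, SE 0.0958, edgeR adjusted p = 2.07e-11). Its rise in Cond 2 was small (log2 0.27, SE 0.0915, edgeR adjusted p = 0.0384) and was lost by DESeq2 (adjusted p = 0.126), without control replicate 2 (0.14) and without low nutrient replicate 1 (0.18).

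BNIP3, a mitophagy receptor on mitochondria (chr10:131967684-131981967, reverse strand), was at 31.7, 29.6 and 27.1 TPM in Cond 1, 22.9, 21.4 and 26.0 in Cond 2, 42.6, 36.5 and 42.1 in Cond 3 and 27.9, 26.6 and 26.3 in Cond 4. Like PKM and LDHA, it lay below Cond 1 in Cond 2 and above it in Cond 3, without overlap. The log2 fold changes were -0.42 (SE 0.0889, edgeR adjusted p = 0.00126) and 0.43 (SE 0.0865, edgeR adjusted p = 0.000395). Its pseudogene rows together held 10.7% as many reads as BNIP3, and no call changed when they were added.

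ADM, the vasodilator peptide adrenomedullin, was at 152, 125 and 124 TPM in Cond 1, 135, 97 and 103 in Cond 2, 78.1, 141 and 99.8 in Cond 3 and 134, 128 and 133 in Cond 4. Its groups overlapped, and the 3 libraries of Cond 3 were spread widely. ADM was not called (edgeR adjusted p = 0.106 in Cond 2 and 0.0557 in Cond 3), but was called with no filter on low counts, and without low nutrient replicate 1 (-0.53) and differentiation replicate 2 (-0.62). NDRG1, a differentiation and stress gene, was at 2.43 ± 0.541 TPM (SD, n = 3) in Cond 1 and 2.24 ± 0.431 in Cond 3 and was not called. CA9, the tumour-associated carbonic anhydrase that is among the most oxygen-sensitive HIF targets, had 4 to 30 reads per library, and ANKRD37 had 10 to 28. At this depth no difference was detectable for either, and 35.7% and 40.3% of their exon bases lie opposite a gene on the other strand. The overlap of strands matters only if the counting did not use strand, which the sources used here do not give.

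Ratios of related genes within a library do not depend on the scaling between libraries. The log2 ratio of TPM was compared between conditions for 11 pairs, named among members that had been chosen with earlier results known. An exact two-sided permutation test was used, whose smallest p is 0.1 with 3 against 3 libraries, so that no pair could pass. The libraries did not overlap in 10 of 11 pairs between Cond 3 and Cond 1, in 5 between Cond 2 and Cond 1, in 0 between Cond 4 and Cond 1 and in 6 between Cond 3 and Cond 2. For the TPM of single genes, the shares of all genes without overlap were 48.6%, 35.7%, 11.9% and 47.6%. A ratio of 2 genes is another measure, and ratios of other pairs were not computed. These shares are therefore no background for the pairs. The smallest p adjusted over the 11 pairs was 0.11 in Cond 3, 0.22 in Cond 2, 0.55 in Cond 4 and 0.183 for Cond 3 against Cond 2 (exact permutation).

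The lactate dehydrogenase ratio, LDHA over LDHB, was between 1.25 and 1.31 in Cond 1, 1.02 and 1.13 in Cond 2, 2.28 and 2.62 in Cond 3 and 1.21 and 1.27 in Cond 4. The TPM of the subunits were thus nearly even in Cond 2 and tilted to LDHA in Cond 3, with a log2 difference from Cond 1 of 0.93 against a larger SD of 0.102. The hexokinase ratio, HK1 over HK2, fell from between 2.73 and 3.36 in Cond 1 to between 1.79 and 1.94 in Cond 2 and 1.63 and 1.69 in Cond 3. It was thus lower in both media, by log2 differences of -0.68 and -0.84. The enolase ratio, ENO1 over ENO2, was between 4.27 and 4.73 in Cond 1, 4.04 and 5.3 in Cond 2 and 6.31 and 7.23 in Cond 3. The transporter ratio, SLC2A1 over SLC2A3, was between 0.57 and 0.6 in Cond 1, 0.564 and 0.669 in Cond 2 and 0.901 and 0.97 in Cond 3, near even. PDK1 over PDK3 overlapped in all comparisons. The ratios with LDHB, ALDOA, EGLN1 and SLC16A1 carry the limits given for these genes. The level of a ratio also depends on the gene lengths behind the TPM, such as 6038 bases for LDHA and 2983 for LDHB.

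**Figure D3:**
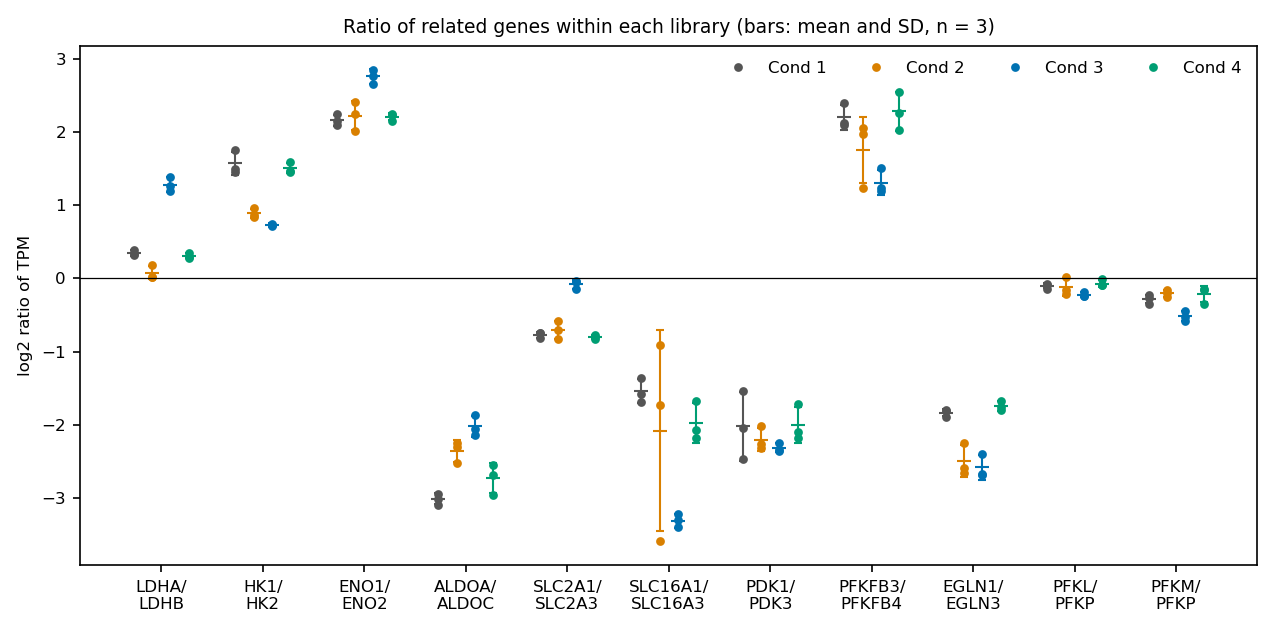
Log2 ratio of TPM for 11 pairs of related members in each library (points), with the mean and SD of the 3 libraries of a condition (bars), coloured by condition. A value of 0 stands for equal TPM. LDHA/LDHB in Cond 3 lies between 1.19 and 1.39, and HK1/HK2 in Cond 2 and Cond 3 lies below Cond 1 and Cond 4.

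Genes of neighbouring pathways were read from 8 lists, chosen by name with earlier results of these data known. For all 8 lists, the counts stand beside the shares over all genes tested. These were 10.8% higher and 10.1% lower in Cond 2, and 19.5% higher and 18.8% lower in Cond 3. In the HIF system, neither HIF1A nor EPAS1, the genes of alpha subunits, rose by the edgeR test against Cond 1. HIF1A, the oxygen-regulated subunit, was at a mean of 188 TPM in Cond 1, 217 in Cond 2, 171 in Cond 3 and 194 in Cond 4, and fell in Cond 3 by 0.16 on the log2 scale (SE 0.0486, edgeR adjusted p = 0.01), a call lost by limma in all genes above 0 TPM (-0.14). In Cond 2 it was not called by edgeR (log2 0.11, adjusted p = 0.1) but was by limma. EPAS1, another alpha subunit, had means between 0.555 and 1.24 TPM. Between the media, its level was called higher in Cond 3 (log2 1.22, SE 0.36, edgeR adjusted p = 0.00959), which was lost without low nutrient replicate 2 (1.00), and it was called higher than in Cond 1 without control replicate 1 (1.04). Its partner ARNT was called in no comparison. Of 12 genes of the list tested, 2 rose in Cond 2, and 3 rose and 2 fell in Cond 3. CITED2, which competes with HIF1A for its coactivator, rose from 254 ± 19.5 TPM (SD, n = 3) in Cond 1 to 642 ± 14.3 in Cond 2 and 439 ± 32.4 in Cond 3 (log2 1.25 and 0.76). ARNT2 rose as well, by 1.02 and 0.84 on the log2 scale. RNA levels do not show the amount of HIF protein, which is set mainly by its breakdown.

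Of 38 other hypoxia-inducible genes tested, 5 rose and 8 fell in Cond 2 (median log2 fold change -0.10), and 12 rose and 15 fell in Cond 3 (median 0.08). In Cond 2 the largest changes at a mean of at least 1 TPM over all 12 libraries were those of AK4, a mitochondrial adenylate kinase (-2.28), CXCR4, a chemokine receptor (1.95), and STC1, a secreted glycoprotein (-1.76). STC1 moved in opposite directions, with a mean of 35.2 ± 5.62 TPM (SD, n = 3) in Cond 1, 11 ± 1.14 in Cond 2 and 52.0 ± 4.43 in Cond 3. In Cond 3, the largest changes at that mean were falls. DDIT4, an inhibitor of mTORC1 signalling, fell from 422 ± 33.4 to 81.3 ± 17.0 TPM (log2 -2.40, edgeR adjusted p = 5.16e-14), STC2 fell by a log2 fold change of -1.92 and NDUFA4L2, at 1.26 TPM in Cond 1, fell by 3.51 on that scale with an SE of 0.733. EPO, erythropoietin, was below that mean, at 0.242 ± 0.329 TPM in Cond 1 and 1.61 ± 0.276 in Cond 3, and rose by 2.55 on the log2 scale (SE 0.878, edgeR adjusted p = 0.0247). It was named after its values were seen, and no alternative was run for it. Like the members, the list held genes that rose and genes that fell in each medium. So did all genes tested, with 10.8% higher and 10.1% lower in Cond 2 and 19.5% and 18.8% in Cond 3.

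The amino acid response genes, targets of the factor ATF4, fell in Cond 3 in 13 of 13 genes tested, with a median log2 fold change of -1.85, while in Cond 2 3 rose and 1 fell (median 0.02). ATF5, TRIB3 and CHAC1 had the largest falls, with log2 fold changes of -3.40, -3.30 and -3.18. Several genes of the hypoxia list, DDIT4 and STC2 among them, are known to answer to this response too. Whether it had a part in the falls of DDIT4 and STC2 in Cond 3 was not tested. Of 12 genes of the MYC and carbohydrate response list, 1 rose and 2 fell in Cond 2, and 3 rose and 4 fell in Cond 3. MYC, which drives many glycolytic genes, fell in both media, from a mean of 54.0 TPM to 37.2 in Cond 2 (log2 -0.63, SE 0.109, edgeR adjusted p = 0.000168) and 17.6 in Cond 3 (log2 -1.65, SE 0.115, edgeR adjusted p = 1.46e-10). TXNIP and ARRDC4, arrestins that are induced by sugar phosphates and take glucose transporters off the membrane, fell in Cond 3 by log2 fold changes of -1.98 and -2.30 and were not called in Cond 2.

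**Figure D4:**
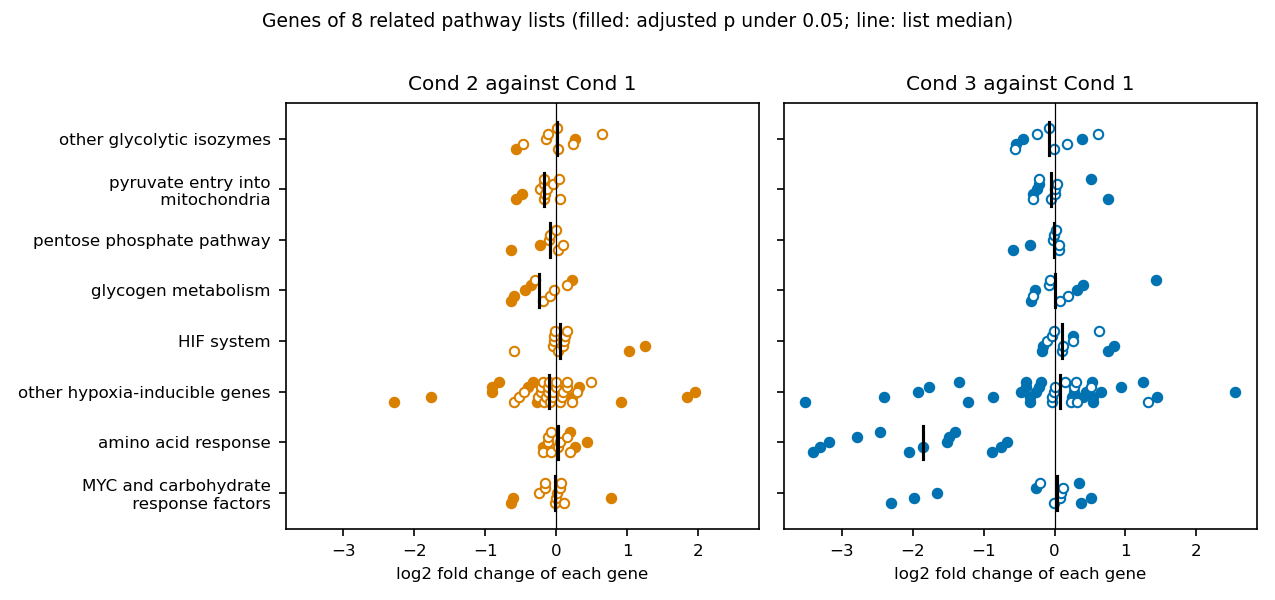
Log2 fold change of each tested gene of 8 pathway lists in Cond 2 (left) and Cond 3 (right) against Cond 1, with filled points for genes that passed the test and a line at the median of each list. The amino acid response list lies wholly below 0 in Cond 3, with a median of -1.85, and the medians of the other lists lie between -0.24 and 0.11.

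Of the remaining lists, the other glycolytic isozymes had 9 of 17 genes tested, with 1 higher and 1 lower in Cond 2 and 1 higher and 2 lower in Cond 3. ADPGK, an ADP-dependent glucokinase, rose in both media (log2 0.27 and 0.39), a call lost in Cond 2 without replicate 1 or 2 of the control or of low nutrient (0.22 to 0.29), and TIGAR and PFKFB2, which lower and raise fructose-2,6-bisphosphate, fell in Cond 3 (-0.54 and -0.45). Of 11 genes for the entry of pyruvate into mitochondria, 2 fell in Cond 2, PDP2 and MPC1, the latter a call lost without any 1 of the 6 libraries (-0.63 to -0.51), and 2 rose and 3 fell in Cond 3, where PDK2, a kinase of the same family as PDK1 and PDK3, rose from 8.6 to 14.7 TPM (log2 0.75, SE 0.12, edgeR adjusted p = 2.87e-05). Of 7 genes of the pentose phosphate pathway, which branches off after hexokinase, 2 fell in each medium, with TKT, transketolase, at -0.63 and -0.58. Of 10 genes of glycogen metabolism, 1 rose and 4 fell in Cond 2, and 3 rose and 2 fell in Cond 3, where PYGM, the muscle glycogen phosphorylase, rose 2.70-fold (log2 1.43, SE 0.147, edgeR adjusted p = 6.68e-08). In Cond 4 no gene of the 8 lists was called by edgeR.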

How the data were processed

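RNA-Seq was measured in 12 libraries, 3 for each of 4 conditions, grouped by the labels. According to the labels and methods, the authors prepared stranded poly(A) libraries, trimmed reads (bcl2fastq 2.20.0.422, cutadapt 4.1, fastp 0.20.1), aligned them to GRCh38 with HISAT2 2.1.0 and counted them with featureCounts. The settings for strand and for reads with several matches are not given in the sources used here. The deposited counts are whole numbers without normalization, and the deposited TPM are, in each library, those counts per length times a factor (largest relative deviation 1.79e-14). Of 58580 count lines, 5 held no whole gene row and were left out.

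Counts were normalized by TMM, filtered by filterByExpr and tested with edgeR 4.0.16 in R 4.3.3, with all 12 libraries in the same model. The SE beside an edgeR result was derived as the absolute log2 fold change divided by the square root of the F statistic. The study's methods name limma on TPM, which was an alternative (limma 3.58.1, on log2(TPM + 1) and log2(TPM + 0.1), genes at 1 TPM or more in all libraries). PFKL was tested by limma alone. Further alternatives were DESeq2 1.42.0, other normalizations, no filter, the 6 libraries alone, a replicate block, other thresholds, summed pseudogene reads and each library left out. On data simulated for Cond 2 against Cond 1, edgeR recovered 152 of 190 changed genes among 17028 tested. It recovered 137 of 142 with a mean of at least 50 counts, with 10 false calls. Of the recovered genes, 67 had been changed by 1 and 85 by 2 on the log2 scale, in either direction. Smaller changes, like those of most called members, were not simulated, so the recovery does not extend to them.

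The members and lists were chosen with earlier results of these data known. All members are named, and of each list at most 3 called genes per comparison with the largest change and a mean of at least 1 TPM over the 12 libraries, plus MYC, HIF1A, EPAS1 and ARNT. Marker genes were named after their values were seen. Gene coordinates and exon overlaps come from GENCODE release 44 (GRCh38), promoters from RefSeq (GRCh38.p14).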

Additional observations from a re-analysis of the deposited data

How the results depend on the processing

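Of 54 calls of members over the comparisons, 35 kept their direction and their side of the threshold in every alternative that gave a value, and 0 changed direction. Of 69 calls of named list genes, 52 did so. In Cond 2, 2 members rose, but 1 with DESeq2, upper-quartile normalization, the 6 libraries alone, an adjusted p under 0.01 and limma in all genes above 0 TPM (the last chosen after seeing the data), and between 1 and 3 when each library was left out. VEGFA was the call lost with DESeq2, that normalization, the 6 libraries alone and limma, and without control replicate 2 or low nutrient replicate 1. Leaving out each library, between 9 and 11 fell in Cond 2, 12 to 15 rose and 8 to 9 fell in Cond 3, and 12 to 17 were higher and 3 to 4 lower in Cond 3 than in Cond 2. For Cond 3 against Cond 2, 15 members were higher, but 7 by limma in all genes above 0 TPM, where the cause was not tested. With a fold change above 2 as well, 0 rose and 1 fell in Cond 2, 2 rose and 2 fell in Cond 3, and 3 were higher and 1 lower in Cond 3 than in Cond 2, since this rule is stricter. With pseudogene reads summed, the ratios of related genes moved by less than their SD; leaving out 1 of 3 libraries can hardly move a mean by more, so it is no test of them. Deviations of same-numbered libraries correlated between -0.0131 and 0.0379 in 18 pairs, and those of different-numbered libraries between -0.0693 and 0.0607 in 36 pairs. No pairing by replicate number was thus seen, but such low correlations cannot show that the libraries were unpaired. With the replicate block, 2 members rose and 10 fell in Cond 2, 15 rose and 8 fell in Cond 3, and 15 were higher and 3 lower in Cond 3 than in Cond 2. The only member call that the block changed was that of P4HA1 in Cond 3 against Cond 2 (-0.26, adjusted p = 0.0533). Depth limits SLC16A1, CA9 and ANKRD37, with at most 30 reads per library, and the values of ALDOA, EGLN1 and LDHB depend on how reads in shared exons were assigned.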
